A study of Mus musculus with 24 samples.

Results

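Potassium channel genes were read as all genes whose symbol starts with Kcn, the prefix that the mouse nomenclature gives to the pore-forming subunits of potassium channels and to the subunits that assemble with them. Of 17097 genes measured on the arrays, 77 carry the prefix, of which 74 encode a channel or a channel subunit and 3 are noncoding transcripts named after a channel locus (Kcnq1ot1, Kcnmb4os1 and Kcnmb4os2). Where a gene had several probe sets assigned to it alone, the brightest on average represented it. This applied to 39 of the 77 genes, whereas 38 had 1 probe set. By subfamily prefix, the inward rectifiers (Kcnj) contributed 15 genes, the tandem-pore leak channels (Kcnk) 9, the Shaker-related channels (Kcna) 7 and the ether-a-go-go-related channels (Kcnh) 6.

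Spinal cord RNA was hybridized on 24 Affymetrix arrays, 1 array per mouse, from female mice of 8 to 12 weeks described as littermates. Experimental autoimmune encephalomyelitis (EAE), a demyelinating disease driven by T cells against myelin, was induced by adoptive transfer of cells reactive to myelin oligodendrocyte glycoprotein (MOG). Wild-type mice were left naive (n = 5) or were irradiated with 500 rad and injected with MOG-reactive Th1 cells (n = 5) or Th17 cells (n = 5), which had been cultured with IL-12 and an antibody to IL-23p19 or with IL-23, respectively. Mice labelled Act1 KO, after the adaptor of IL-17 receptor signalling, were left naive (n = 5) or were irradiated in the same way and injected with Th17 cells (n = 4). Cords were taken 12 days after transfer according to the methods and at the onset of symptoms according to the sample labels. The study's results text instead places them at the peak of disease. Naive mice received neither irradiation nor cells, so disease, irradiation and transfer cannot be told apart. The treatment labels place the Act1 deficiency in the recipients, whereas the series' design text places it in the mice from which cells were derived. The deletion itself is not described for these mice in the sources used here, and the study's display of these arrays gives Act1+/- for the group that the labels call wild type.

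Potassium channels let potassium leave the cell and so set the resting potential, end the action potential and limit repetitive firing. In myelinated axons, Shaker-related channels are gathered beside the node of Ranvier under the myelin, and their exposure after demyelination is a classical concern in inflammatory demyelination. Glia use inward rectifiers and leak channels to take up potassium released by firing neurons, and T cells, macrophages and microglia rely on a small set of potassium channels to keep the driving force for calcium entry.

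Values below are RMA values on the log2 scale, in which a difference of 1 is a doubling of signal and levels of different probe sets cannot be compared with each other. A gene was called at a limma adjusted p under 0.05, with Benjamini-Hochberg adjustment over all 17097 genes. No detection call comes with the values. The median of all values was 3.52, and 28 of the 77 genes had a mean over all arrays under it, near the level of unexpressed genes, against 49 above it. A fold against a group whose mean lies under 3.52 is given as a lower bound.

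Several facts about the arrays apply to all results. Arrays of 1 group correlated at 0.9862 to 0.9966. Th1 recipients 4 and 5 stood apart from their group, at 55.0 and 55.9 on the leading principal component of all genes against 67.8 to 68.5 for the other 3. The probe set of Traf3ip2, the gene encoding Act1, gave 4.29 ± 0.20 (SD, n = 5) in naive wild-type mice and 5.56 ± 0.24 (n = 5) in naive mice labelled Act1 KO. The signal was thus higher where the label says that the gene was deleted, so without a description of the deleted part the label cannot be checked from it. The Hox genes that mark cord segments gave clear signal, with a mean over 12 genes between 6.63 and 6.86 in naive wild-type mice.

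The sharpest result was a split of the family. In wild-type Th17 recipients, 3 of the 77 genes were called higher and 43 lower than in naive wild-type mice. In wild-type Th1 recipients, 3 were called higher and 39 lower. Of all genes tested, 18.0% were called higher and 25.5% lower in Th17 recipients, and 16.7% and 24.1% in Th1 recipients. The median difference of the 77 genes was -0.39 in Th17 recipients and -0.36 in Th1 recipients, beside -0.05 and -0.06 over all genes. The values of naive mice and recipients did not overlap at all for 36 genes in Th17 recipients (35.0% of all genes) and for 37 in Th1 recipients (33.6%). Both comparisons use the same 5 naive arrays, so they are not independent of each other.

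Signal level bore on these counts. Among the 49 genes above the median of all values, 38 were called lower and 3 higher in Th17 recipients, beside 37.7% lower and 23.9% higher of all genes above it. For Th1 recipients the counts were 36 lower and 3 higher, beside 35.6% and 22.5%. The 28 dim genes contributed 5 lower calls in Th17 recipients, 3 in Th1 recipients and no higher call in either.

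**Figure D1:**
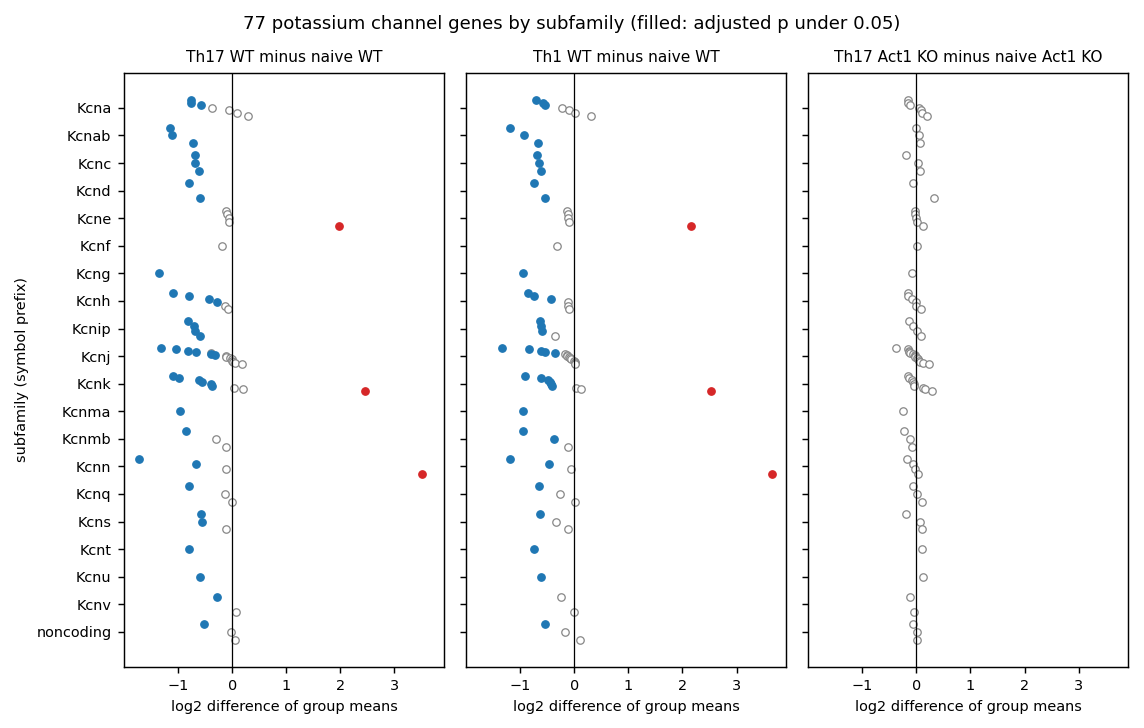
Log2 difference of group means (x axis) for each of the 77 potassium channel genes, by subfamily prefix (y axis), for wild-type Th17 recipients, wild-type Th1 recipients and Th17 recipients labelled Act1 KO, each against naive mice of the same genotype; filled points passed an adjusted p under 0.05. Most filled points lie left of 0 in the wild-type panels, 3 points lie far to the right, and the Act1 KO panel has no filled point, with differences from -0.38 to 0.33.

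The 3 genes that rose were Kcnn4, Kcnk6 and Kcne1l, each the lone member of its subfamily to do so. Kcnn4 and Kcne1l have a promoter entry in the RefSeq table (GRCm38.p6), and the 250 bases before the start site given there are shown. For Kcne1l the window ends where the annotated gene begins. For Kcnn4, in contrast, that start site lies 437 bases inside the annotated gene, so its whole window lies within the gene. Capitals mark CG pairs.
Kcnn4, chr7:24370013-24370262, plus strand: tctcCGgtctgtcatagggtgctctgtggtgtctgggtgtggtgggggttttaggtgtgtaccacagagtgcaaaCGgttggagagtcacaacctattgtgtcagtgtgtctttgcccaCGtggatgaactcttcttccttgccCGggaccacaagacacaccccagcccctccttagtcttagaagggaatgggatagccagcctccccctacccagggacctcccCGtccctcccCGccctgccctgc
Kcne1l, chrX:142306199-142306448, minus strand: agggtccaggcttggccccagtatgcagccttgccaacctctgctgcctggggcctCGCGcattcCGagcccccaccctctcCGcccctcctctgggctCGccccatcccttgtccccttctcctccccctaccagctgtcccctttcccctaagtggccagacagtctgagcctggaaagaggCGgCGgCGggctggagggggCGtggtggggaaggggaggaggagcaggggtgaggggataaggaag
These windows hold 6 and 9 CG pairs, where the median over 32817 promoters of the same length was 6.0. No match to TGANTCA (AP-1), the NF-kappaB motif, TTCNNNGAA (GAS) or GAGGAAGT (ETS) was found in them on either strand, which says only that these letters are not in these windows, and the motifs occur in 6.75%, 0.357%, 7.01% and 2.44% of all promoters, respectively.

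Kcnn4 encodes the calcium-activated potassium channel of intermediate conductance, known for its role in activated T cells, macrophages and microglia. The naive wild-type mice gave 3.31, 3.31, 3.12, 3.22 and 3.62, with a group mean under the median of all values. Signal in Th17 recipients was 6.80, 6.84, 7.05, 6.43 and 7.0, and that in Th1 recipients was 6.95, 7.06, 7.24, 6.89 and 6.69. Every recipient lay above every naive mouse, and the recipient groups overlapped each other. The difference was 3.51 (SE 0.15, at least 11.4-fold, limma adjusted p = 7.68e-17) for Th17 recipients and 3.65 (SE 0.15, at least 12.6-fold, limma adjusted p = 3.37e-17) for Th1 recipients. A second, dimmer probe set of Kcnn4 differed by 1.79 and 1.56.

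Kcnk6, a tandem-pore leak channel, was at 4.04, 3.72, 3.94, 4.28 and 4.00 in the naive wild-type mice. Th17 recipients reached 6.32, 6.71, 6.56, 6.60 and 6.09. Th1 recipients reached 6.90, 6.79, 6.17, 6.38 and 6.30. Again no recipient overlapped with a naive mouse. Kcnk6 differed by 2.46 (SE 0.15, 5.51-fold, limma adjusted p = 1.34e-13) in Th17 recipients and by 2.52 (SE 0.15, 5.72-fold) in Th1 recipients.

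Kcne1l encodes a small single-pass subunit that modifies voltage-gated channels. Its naive wild-type values were 5.22, 4.91, 4.80, 5.21 and 4.97. Th17 recipients gave 7.43, 6.91, 7.32, 6.39 and 6.99, and Th1 recipients 6.92, 7.44, 7.88, 6.92 and 6.71. The spread among recipients was wider than among naive mice, without overlap between them. Differences of 1.98 (SE 0.20, 3.96-fold, limma adjusted p = 6.66e-09) and 2.15 (SE 0.20, 4.44-fold) were obtained for Th17 and Th1 recipients. The other 4 Kcne genes were not called in either comparison, with differences from -0.14 to -0.05. All 4 had a mean over all arrays under the median of all values, near the level of unexpressed genes.

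**Figure D2:**
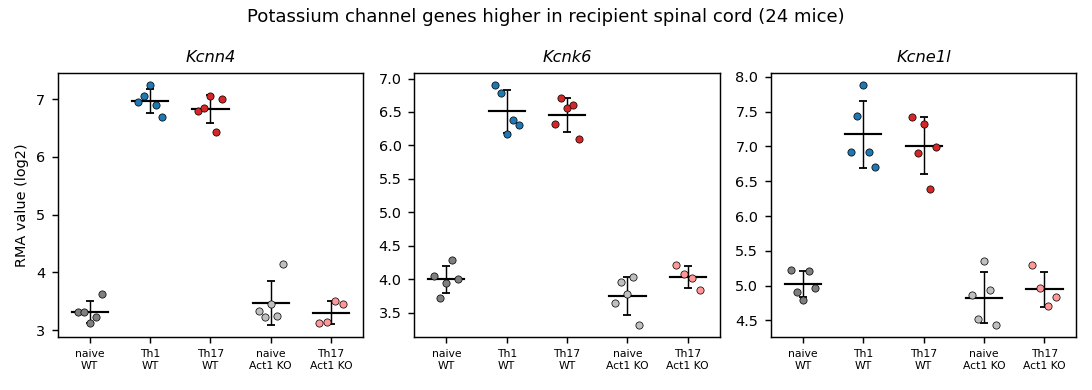
RMA values (log2, y axis) of Kcnn4, Kcnk6 and Kcne1l in each mouse of the 5 groups (x axis); bars are group means with SD. Wild-type recipients of Th1 or Th17 cells lie above all naive mice, whereas Th17 recipients labelled Act1 KO lie with the naive mice.

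Kcna3, the Shaker-related channel best known from T cells, was not called. Its naive wild-type values ran from 3.25 to 4.09 and overlapped with those of Th17 recipients (3.65 to 4.42) and Th1 recipients (3.92 to 4.18). The difference was 0.30 (95% confidence interval 0.03 to 0.58, limma adjusted p = 0.0687) in Th17 recipients. Kcna3 passed the threshold with the plate row, read here from a letter in a code of the sample titles whose meaning no source states, as a block (0.30, adjusted p = 0.0224) and without naive mouse 1 (0.39, adjusted p = 0.0201), naive mouse 2 (0.35, 0.0477), Th17 recipient 2 (0.40, 0.0154) or Th17 recipient 5 (0.36, 0.0416). Its sign depended on the scaling, at 0.05 after centring on the array median and -0.13 after centring on ribosomal protein genes.

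RNA of leukocyte markers rose in the same cords. All 18 measured markers of monocytes and macrophages were called higher in both recipient groups, and their mean level lay between 3.76 and 3.82 in naive wild-type mice, 8.33 and 8.72 in Th1 recipients and 8.74 and 9.01 in Th17 recipients. Of the T cell markers, 11 of 11 were called higher in both, with mean levels of 2.85 to 2.95, 4.94 to 5.26 and 5.29 to 5.61. In naive wild-type mice, 10 of the 18 monocyte and macrophage markers and all 11 T cell markers were under the median of all values. The part of these cell types in the rise of Kcnn4, Kcnk6 and Kcne1l was not tested.

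The genes that fell were spread over most subfamilies, and they are described by the role of the protein. In whole tissue, fewer cells of a type and less RNA per cell cannot be told apart. Neuronal markers moved with them: 17 of 19 were called lower in Th17 recipients (median -0.71, range -1.01 to -0.14) and 18 of 19 in Th1 recipients (median -0.65). Their mean level lay between 9.64 and 9.77 in naive wild-type mice, 9.01 and 9.17 in Th1 recipients and 8.96 and 9.10 in Th17 recipients. Of the potassium channel genes called in either direction in Th17 recipients, 35 had a difference within the range of these neuronal markers, and 8 genes lay below it. A separate list of 5 motor neuron markers reached lower, to -1.66. For mature oligodendrocyte markers, 10 of 11 were called lower in each recipient group, with medians of -0.79 and -0.74. Astrocyte markers were mixed, with 4 called higher and 7 lower of 12 in Th17 recipients. In Th17 recipients, 6 of 9 oligodendrocyte precursor markers and 11 of 12 spinal cord Hox genes were called lower, 7 of 10 neutrophil and 6 of 8 fibroblast markers were called higher, and endothelial (3 higher and 3 lower of 10), mural (2 and 3 of 9) and Schwann cell markers (3 and 2 of 6) were split. The part of these cell types in the fall of the channel genes was not tested.

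**Figure D3:**
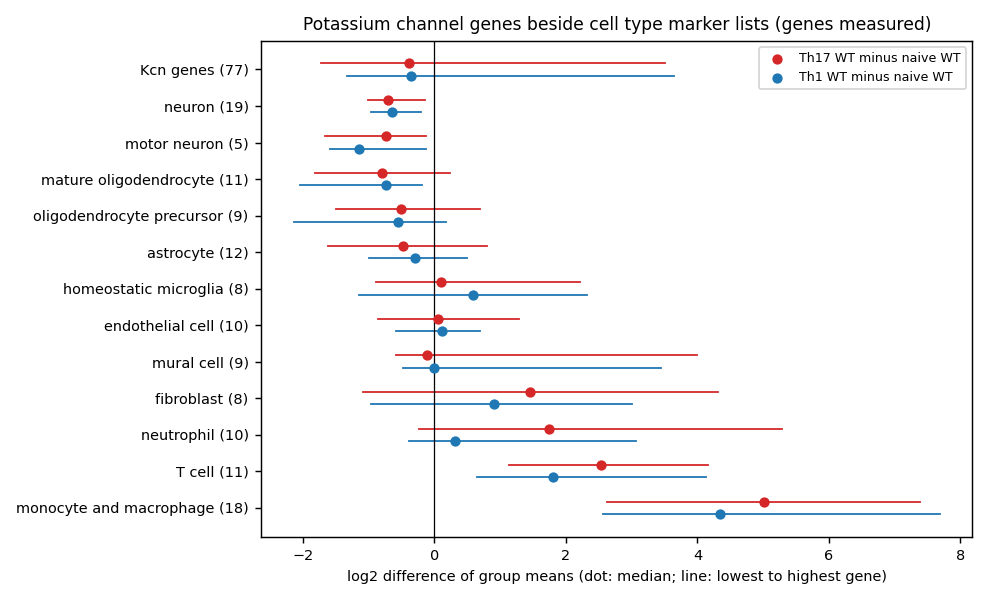
Log2 difference of group means (x axis) of the 77 potassium channel genes and of cell type marker lists (y axis, genes measured in parentheses) in wild-type Th17 and Th1 recipients against naive wild-type mice; dots are medians and lines run from the lowest to the highest gene. The channel genes have medians of -0.39 and -0.36 beside -0.71 and -0.65 for the neuronal list and 5.01 and 4.35 for the monocyte and macrophage list, and their upper end is Kcnn4.

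Among the channels of the juxtaparanode, Kcna2 and Kcna1 were lower in both recipient groups. Kcna2 was at 8.78, 8.57, 8.72, 8.72 and 8.70 in naive wild-type mice and at 8.04, 7.96, 7.91, 7.81 and 7.95 in Th17 recipients, with the Th1 recipients between 7.88 and 8.08. The groups did not overlap, and the difference was -0.76 (SE 0.08, 1.70-fold, limma adjusted p = 9.3e-09) for Th17 and -0.71 (SE 0.08) for Th1 recipients. Kcna1 ran from 11.00 to 11.21 in naive wild-type mice, from 10.24 to 10.67 in Th17 recipients and from 10.28 to 10.65 in Th1 recipients. Its differences were -0.58 (SE 0.12) and -0.57 (SE 0.12), and 2 further probe sets with clear signal gave -0.52 and -0.29 for Th17 recipients. Kcna4, which carries a rapidly inactivating current, was called lower in both (-0.76 and -0.55), from a naive mean of 3.75. Kcna6 was not called (-0.37 and -0.23, limma adjusted p = 0.0739 and 0.296). It passed in both groups with the plate row as a block (-0.35, adjusted p = 0.00711, and -0.34, adjusted p = 0.0137) and with either centring of the arrays, and in Th17 recipients also on the mean of all probe sets (-0.38, 0.00301), with only the compared groups fitted (0.0466) and without naive mouse 4 (-0.44, 0.0458). Kcna5 and Kcna7 differed by at most 0.09 in size.

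All 3 cytoplasmic beta subunits of these channels fell. Kcnab1 stood at 8.56, 8.39, 8.72, 8.62 and 8.5 in naive wild-type mice, at 7.74, 7.42, 7.34, 7.36 and 7.34 in Th17 recipients and between 7.45 and 7.76 in Th1 recipients. Without overlap, it differed by -1.12 (SE 0.11, 2.17-fold, limma adjusted p = 6.2e-09) and -0.92 (SE 0.11). Kcnab3 differed by -1.14 (SE 0.11) and -1.18 (SE 0.11). Kcnab2, a partner in the axonal complex, differed by -0.72 (SE 0.09) and -0.67 (SE 0.09).

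Genes of the protein complex that places Shaker-related and Kcnq channels on axons were examined as partners. Of 15 measured, 11 were called lower and 1 higher in Th17 recipients, and 14 lower and none higher in Th1 recipients, with a median of -0.67 in both. Cntnap2, the neurexin-like protein of the juxtaparanode, differed by -0.74 and -0.67, and Adam22, a receptor for secreted Lgi proteins, by -0.85 and -0.73. Nrcam, a cell adhesion molecule of the node, was called higher in Th17 recipients (0.33, SE 0.10). Lgi1, a secreted modifier of Shaker-related channels, was lower by -1.02 and -0.65.

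The Shaw-related channels, which repolarize fast-firing neurons, were called lower without exception among those measured. Kcnc1 gave 8.91, 9.23, 9.16, 9.09 and 9.04 in naive wild-type mice and 8.23, 8.59, 8.19, 8.48 and 8.5 in Th17 recipients, and the Th1 recipients (8.28 to 8.69) also lay below all naive mice. Its difference was -0.69 (SE 0.11, 1.61-fold, limma adjusted p = 5.89e-06) in Th17 and -0.61 (SE 0.11) in Th1 recipients. Kcnc2 and Kcnc4 differed by -0.69 and -0.62 in Th17 recipients and by -0.66 and -0.68 in Th1 recipients.

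Shal-related channels carry the somatodendritic transient current, and both measured members were called lower in both groups. Kcnd3 differed by -0.80 (SE 0.13) and -0.55 (SE 0.13), and Kcnd1 by -0.59 (SE 0.14) and -0.75 (SE 0.14). A further probe set of Kcnd3 above the median of all values differed by only -0.1 and -0.26. The calcium-binding subunits that escort Shal-related channels (Kcnip1 to Kcnip4) were called lower in 4 of 4 cases in Th17 recipients, with differences from -0.81 to -0.59. In Th1 recipients 3 of 4 were called lower. Kcnip1 was the exception in Th1 recipients (-0.36, limma adjusted p = 0.0642), where the recipients (6.33 to 6.94) overlapped with the naive mice (6.54 to 7.08). It passed there on the mean of all probe sets (-0.36, adjusted p = 2.95e-05), with only the compared groups fitted (0.031), the dim-gene filter (0.0471) or the replicate block (0.0376), with either centring, and without naive mouse 5 (-0.45, 0.0277) or Th1 recipient 2 (-0.47, 0.0181). A second probe set of Kcnip1 differed by -1.01 in Th17 and -0.86 in Th1 recipients. Their transmembrane partners Dpp10 and Dpp6 were lower as well, by -1.20 and -0.67 in Th17 and by -0.87 and -0.59 in Th1 recipients.

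Modifier subunits, which conduct no current of their own, were led by Kcng4. It was at 7.70, 7.63, 7.18, 7.50 and 7.59 in naive wild-type mice and at 6.04, 6.42, 5.93, 6.29 and 6.17 in Th17 recipients, while the Th1 recipients (6.14 to 7.01) lay below all naive mice and overlapped with the Th17 recipients. The difference was -1.35 (SE 0.15, 2.55-fold, limma adjusted p = 1.89e-08) for Th17 and -0.95 (SE 0.15, 1.94-fold) for Th1 recipients. Kcns3 was called lower in both (-0.57 and -0.64), Kcns2 in Th17 recipients (-0.56 against -0.33 in Th1 recipients), and Kcns1 and Kcnf1 in neither.

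Of the ether-a-go-go family, Kcnh2, which carries the slowly deactivating current also known from the heart, differed by -1.10 (SE 0.12, 2.14-fold) and -0.86 (SE 0.12, 1.81-fold). Naive wild-type mice lay between 6.35 and 6.54, Th1 recipients between 5.40 and 5.82 and Th17 recipients between 5.20 and 5.54, with no recipient among the naive mice. Kcnh1 was lower by -0.80 and -0.74. In total 4 of 6 members were called lower in Th17 and 3 of 6 in Th1 recipients. Kcnq5, a subunit of the current that is closed by muscarinic receptors, differed by -0.80 (SE 0.09) and -0.65 (SE 0.09), whereas Kcnq1 and Kcnq3, both dim, were not called.

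Of the inward rectifiers, 6 of 15 were called lower in Th17 and 5 of 15 in Th1 recipients, and none was called higher. Kcnj14 was at 5.34, 5.41, 4.96, 5.20 and 5.56 in naive wild-type mice, at 3.45, 4.27, 4.03, 4.18 and 3.95 in Th17 recipients and between 3.55 and 4.32 in Th1 recipients, again without overlap. It differed by -1.32 (SE 0.16, 2.50-fold, limma adjusted p = 1.69e-07) and -1.33 (SE 0.16, 2.51-fold). Motor neurons are a known site of this channel, and 4 of 5 motor neuron markers were called lower in both groups (medians -0.73 and -1.14). The G-protein-gated subunits Kcnj3 (-1.03 and -0.84) and Kcnj9 (-0.66 and -0.61) were lower too, and their partners Kcnj6 and Kcnj5, both dim, were not called.

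The glial rectifiers Kcnj10 and Kcnj16, which can form a joint channel in astrocytes, moved by unequal amounts. Kcnj10, the main potassium buffering channel of astrocytes and oligodendrocytes, was at 8.69, 8.89, 8.72, 8.55 and 9.10 in naive wild-type mice and at 8.44, 8.56, 8.34, 8.58 and 8.43 in Th17 recipients. These ranges overlapped slightly, whereas the Th1 recipients (8.34 to 8.48) lay below all naive mice. The difference was -0.32 (SE 0.10, 1.25-fold, limma adjusted p = 0.0125) in Th17 and -0.35 (SE 0.10) in Th1 recipients. Without naive mouse 5 the Th17 difference was -0.25 and no longer passed (adjusted p = 0.0565). Kcnj16 ran from 6.68 to 7.21 in naive wild-type mice and from 5.88 to 6.52 in Th17 recipients, and it differed by -0.82 (SE 0.16, 1.76-fold) and, in Th1 recipients, by -0.54 (SE 0.16).

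Glial partners of potassium buffering were mixed. Of 8 measured in Th17 recipients, 3 were called higher and 4 lower. The water channel Aqp4 differed by 0.04 (limma adjusted p = 0.779), the connexins Gjb6 and Gja1 were lower by -0.95 and -0.65, and the glutamate transporter Slc1a2 was higher by 0.68.

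The rectifier Kcnj8, the pore of the ATP-sensitive channel of vascular mural cells, was not called. It lay between 4.1 and 4.6 in naive wild-type mice and between 4.33 and 4.69 in Th17 recipients, with a difference of 0.18 (95% confidence interval -0.08 to 0.44). In Th1 recipients it differed by 0.01, which became -0.49 when the arrays were centred on ribosomal protein genes. Kcnj2, the classical strong rectifier, was dim in all groups (2.53 to 3.02) and not called, although it was called lower in Th17 recipients after centring on the array median (-0.37).

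Leak channels set the resting potential, and 6 of the 9 measured fell in each recipient group while Kcnk6 rose. Kcnk3, an acid-sensitive channel, differed by -1.10 (SE 0.15, 2.15-fold) and -0.91 (SE 0.15). Kcnk2, which opens on membrane stretch and to lipids, differed by -0.61 (SE 0.12) and -0.48 (SE 0.12). Kcnk13, known in microglia, ran from 5.73 to 6.12 in naive wild-type mice and from 5.25 to 5.58 in Th17 recipients, and it differed by -0.55 (SE 0.12) and -0.62 (SE 0.12). Markers of homeostatic microglia were split in the same cords, with 4 called higher and 4 lower of 8 in Th17 recipients.

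Most calcium- and sodium-activated channels with clear signal fell, in contrast to Kcnn4, whereas the dim Kcnn3 and Kcnmb1 were not called. Kcnn2, the small-conductance channel that shapes the after-hyperpolarization of neurons, showed the largest decrease of all 77 genes in Th17 recipients. Its values were 7.05, 7.03, 6.82, 6.97 and 7.04 in naive wild-type mice, 5.38, 5.39, 5.09, 5.35 and 5.02 in Th17 recipients and 6.03, 5.59, 5.62, 5.90 and 5.87 in Th1 recipients. All 3 groups were separate from each other. The difference was -1.73 (SE 0.11, 3.33-fold, limma adjusted p = 9.5e-13) in Th17 and -1.18 (SE 0.11, 2.26-fold) in Th1 recipients. Both lay below the lowest of the 19 general neuronal markers (-1.01 and -0.96). The separate motor neuron markers reached -1.66 and -1.58. Kcnma1, the large-conductance channel, and its neuronal beta subunit Kcnmb4 were lower by -0.97 and -0.86 in Th17 and by -0.94 and -0.94 in Th1 recipients. Kcnt1, the sodium-activated channel, differed by -0.80 and -0.74.

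**Figure D4:**
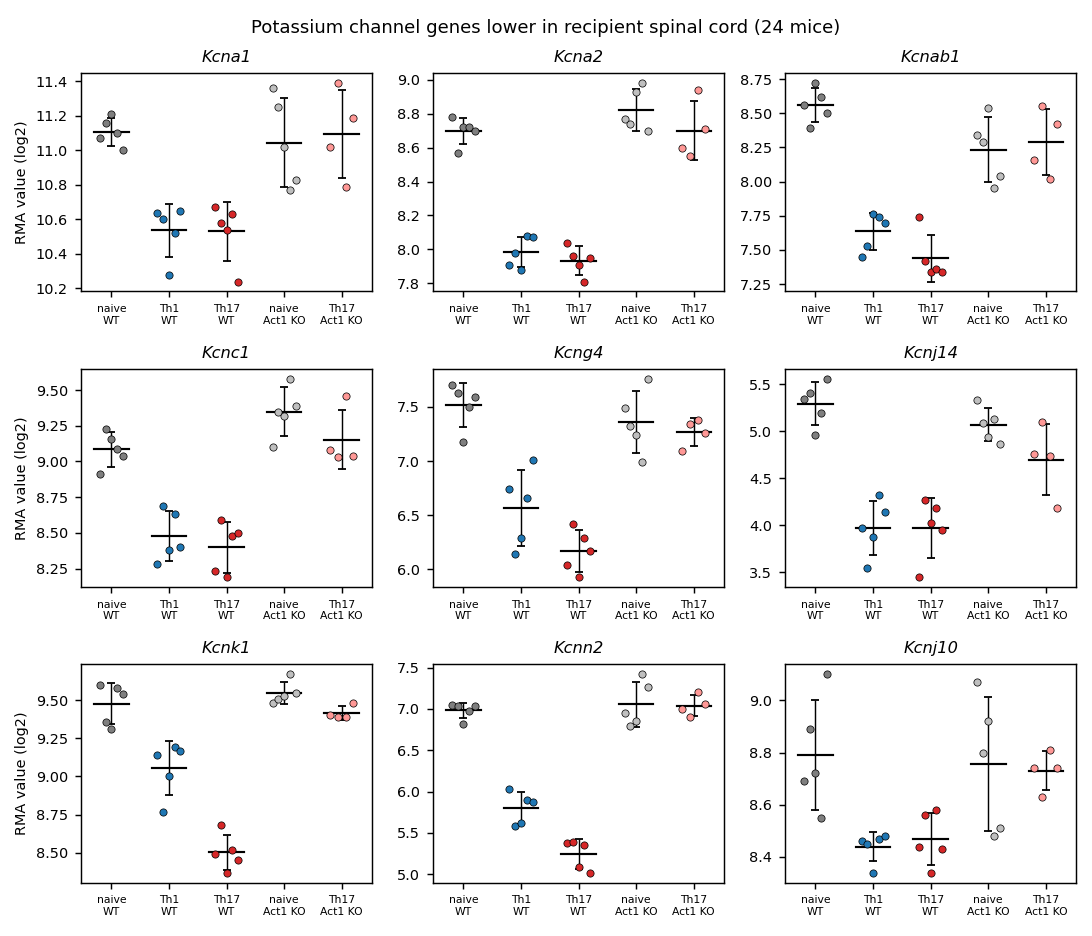
RMA values (log2, y axis, each panel on its own scale and not starting at 0) of 9 potassium channel genes in each mouse of the 5 groups (x axis); bars are group means with SD. Wild-type recipients lie below naive wild-type mice, with partial overlap for Kcnj10. Wild-type Th17 recipients lie below Th1 recipients for Kcnk1 and Kcnn2. Th17 recipients labelled Act1 KO lie near the naive level, except for Kcnj14. Its mean there (4.7) lies between naive mice labelled Act1 KO (5.07, difference not called) and wild-type Th17 recipients (3.98).

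Potassium pumps and cation-chloride cotransporters were measured as a further partner list of 11 genes, with 5 called higher and 6 lower in each recipient group. The pump regulator Fxyd5 was higher by 5.01 and 4.99 and the potassium-chloride cotransporter Slc12a7 by 1.97 and 1.92. Slc12a5, the neuronal cotransporter that keeps chloride low, was lower by -0.86 and -0.71, and Slc12a2, which loads chloride, by -1.03 and -0.80. Of the hyperpolarization-activated HCN channels only Hcn2 was measured, and it was not called (-0.28, limma adjusted p = 0.0578). Of 9 auxiliary subunits named outside the Kcn prefix, 1 was called higher and 3 lower in Th17 recipients, and 5 lower in Th1 recipients.

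The direction of the calls was examined by plate row and by probe set. In Th17 recipients, 45 of 46 called genes had the sign of the pooled difference in all 4 plate rows that held both groups, and in Th1 recipients 41 of 42 did so in 3 rows. Where the groups did not overlap, every row had to give that sign, so these counts were largely fixed in advance. Of the further probe sets of called genes, 46 of 50 had the sign of the probe set used for Th17 recipients and 41 of 46 for Th1 recipients. Of 28 further probe sets above the median of all values in called genes, 28 had the same sign as the probe set used for Th17 recipients, and 27 of 27 for Th1 recipients. Centring the arrays on their own median moved the median difference of all genes by -0.255 and -0.248, and centring on 65 ribosomal protein genes by -0.434 and -0.491, so that decreases grew and Kcnn4, Kcnk6 and Kcne1l remained the 3 genes called higher. At 2-fold or more, 3 genes were called higher and 8 lower in Th17 recipients, beside 7.32% and 2.32% of all genes, and 3 and 3 in Th1 recipients, beside 6.74% and 1.45%.

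Whether the encephalitogenic T cell type mattered was tested by comparing Th17 with Th1 recipients directly. No potassium channel gene was called higher and 2 were called lower, Kcnk1 and Kcnn2, where 1.91% of all genes were called higher and 1.09% lower. The same 2 genes were those without overlap between the groups, beside 3.29% of all genes. At an unadjusted p under 0.05, 4 of the 77 genes passed, beside 2051 of all 17097. Both calls concern genes that were lower in Th17 and in Th1 recipients than in naive mice.

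Kcnk1 encodes a weakly conducting leak channel of neurons and astrocytes. Naive wild-type mice gave 9.60, 9.36, 9.31, 9.58 and 9.54, Th1 recipients 9.14, 8.77, 9.0, 9.19 and 9.17 and Th17 recipients 8.49, 8.68, 8.37, 8.52 and 8.45. The 3 groups formed 3 separate steps. Th17 recipients were lower than Th1 recipients by -0.56 (SE 0.08, 1.47-fold, limma adjusted p = 0.000105). The exact permutation test of 5 against 5 mice gave a two-sided p of 0.00794, the smallest it can give. Groups of this size without overlap always give that p, so it adds nothing to the lack of overlap. A second probe set gave -0.53, and the difference lay between -0.80 and -0.46 in each of 3 plate rows that held both groups. The sign in each row was fixed, since the groups did not overlap. Kcnk1 also passed the methods' t-test unadjusted (the methods name no adjustment), but not with the Benjamini-Hochberg adjustment added here (adjusted p = 0.0635).

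Kcnn2 differed by -0.55 (SE 0.11, limma adjusted p = 0.00431, exact permutation p = 0.00794), again without overlap. It is measured by 1 probe set. Without Th1 recipients 4 and 5, the pair that stood apart on all genes, the difference was -0.50 with an adjusted p of 0.0574, and with ribosomal centring it was -0.50 with 0.0555. Kcng4 had a difference of the next size (-0.40, limma adjusted p = 0.19) and did not pass. Neither did Kcnn4 (-0.14, 95% confidence interval -0.45 to 0.17), Kcnk6 (-0.05, -0.36 to 0.25) or Kcne1l (-0.17, -0.58 to 0.25). No neuronal marker was called between Th17 and Th1 recipients (0 of 19, median -0.07), while 8 of 18 monocyte and macrophage markers and 6 of 10 neutrophil markers were called higher in Th17 recipients. Of 12 astrocyte markers 1 was called higher (Slc1a2, 0.39) and 2 lower (Fgfr3, -0.85, and Atp1b2, -0.30), of 10 endothelial markers 2 were lower (Slco1c1, -0.58, and Flt1, -0.56), and of 5 motor neuron markers 1 was higher (Prph, 0.41). The part of these cell types in the differences of Kcnk1 and Kcnn2 was not tested.

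The remaining comparisons concern the Act1 label. Between naive mice of both genotypes, no potassium channel gene was called, where 0.585% of all genes were (28 higher and 72 lower). An unadjusted p under 0.05 was found for 6 of the 77 genes, beside 1250 of all 17097. Of the 6, Kcnab1 had the smallest unadjusted p, with -0.33 (SE 0.11, limma adjusted p = 0.373) in mice labelled Act1 KO. Intervals for single genes in this comparison reached from -0.72 to 0.57.

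In mice labelled Act1 KO, Th17 recipients did not differ from naive mice in any of the 77 genes by limma, nor in any of all 17097 genes (0.0%), with 2 of the 77 and 1070 of all genes at an unadjusted p under 0.05. Kcnj14 (-0.38, SE 0.17) and Kcnd3 (0.33, SE 0.14) were these 2 genes. The groups did not overlap for 1 gene, Kcnk1, beside 1.5% of all genes, with a difference of -0.13 (95% confidence interval -0.31 to 0.05) and an exact permutation p of 0.0159, the smallest that 4 against 5 mice can give. Kcnn4 was at 3.13, 3.14, 3.5 and 3.45 in the recipients and at 3.34, 3.22, 3.45, 3.24 and 4.14 in the naive mice of this genotype, with a difference of -0.17 (95% confidence interval -0.50 to 0.15). Kcnk6 differed by 0.28 (-0.04 to 0.61), Kcne1l by 0.12 (-0.32 to 0.57) and Kcnn2 by -0.02 (-0.27 to 0.23). None of these intervals reached the wild-type differences.

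No gene of the marker lists was called in this comparison either. The mean of the monocyte and macrophage markers lay between 3.78 and 3.92 in Th17 recipients labelled Act1 KO and between 3.78 and 3.89 in their naive counterparts, that of the T cell markers between 2.89 and 3.04 and between 2.86 and 3.11, and that of the neuronal markers between 9.66 and 9.67 and between 9.47 and 9.81. Of the defining markers, 11 of 18 for monocytes and macrophages and 10 of 11 for T cells were under the median of all values in these recipients.

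Tested as a difference between genotypes in the response to Th17 transfer, 34 potassium channel genes responded more positively in mice labelled Act1 KO than in wild-type mice and 3 more negatively, beside 18.2% and 13.8% of all genes. The median of this difference was 0.29, beside 0.05 over all genes. The 3 negative genes were Kcnn4 (-3.68, SE 0.22, limma adjusted p = 2.01e-13), Kcnk6 (-2.18, SE 0.21, limma adjusted p = 6.14e-09) and Kcne1l (-1.86, SE 0.30, limma adjusted p = 1.6e-05). Kcnn2 led the positive side (1.72, SE 0.17), followed by Kcng4 (1.26), Kcnab1 (1.17) and Kcnab3 (1.14). Only 1 plate row held Th17 recipients of both genotypes and none held naive and recipient mice labelled Act1 KO. With the row as a block the positive count was 21 in place of 34, and the share of all genes was 12.6% in place of 18.2%.

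**Figure D5:**
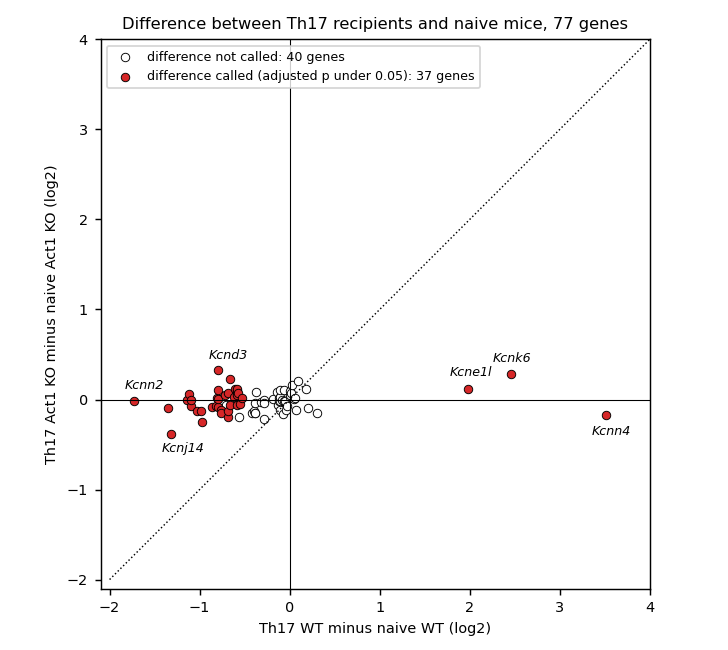
Log2 difference between Th17 recipients and naive mice in wild-type mice (x axis) and in mice labelled Act1 KO (y axis), 1 point per potassium channel gene; the dotted line marks equal differences and filled points are the 37 genes whose differences were called unequal. Points spread from -1.73 to 3.51 along the x axis and from -0.38 to 0.33 along the y axis.

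A direct comparison of Th17 recipients gave 38 genes higher and 5 lower in mice labelled Act1 KO than in wild-type mice, beside 24.6% and 17.6% of all genes. Besides Kcnn4 (-3.52), Kcnk6 (-2.43) and Kcne1l (-2.06), the lower genes were Kcna3 (-0.45, limma adjusted p = 0.0113) and the leak channel Kcnk5 (-0.36, limma adjusted p = 0.00295), whose means of 2.88 and 3.24 both lie under the median of all values. Those last calls depended on the scaling, with -0.18 and -0.09 after centring on the array median and -0.06 and 0.03 after ribosomal centring, none of which passed.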

How the data were processed

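Spinal cord RNA of 24 mice was hybridized to Affymetrix HT-MG-430PM arrays. The authors deposited log2 values per probe set from robust multi-array average (RMA), whose software version is not given in the sources used here. Of 45118 probe sets, 28898 had 1 gene symbol in the platform annotation, 551 had several and 15669 were not listed. The first kind gave 17097 genes. Among them 141 probe sets belonged to Kcn genes, and 2 shared with other symbols were left out. Array medians ran from 3.46 to 3.57, no arrays were identical, and the number of arrays limits the precision. Nothing in the labels says more about the independence of mice within a group, so p-values measure the spread between these samples.

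Group means were fitted once over all 24 arrays with limma 3.58.1 in R 4.3.3, after a test on simulated data, for 7 comparisons. Exact permutation tests served single genes. Named genes were a panel of 26 genes chosen by role, of which 22 were measured, the 8 largest called increases and 8 largest called decreases without overlap in each comparison, and calls against the general direction. Other members were named to complete a subfamily, after their values were seen. Members, 14 marker lists and 5 partner lists were chosen with earlier results of these data known. The plate row was read from a letter in the code of the sample titles, whose meaning no source states. Alternatives changed the probe set choice, dim-gene filter, array centring, variance model, arrays fitted, blocks, test and threshold. Promoter sequences came from RefSeq (GRCm38.p6), which held an entry for 59 of the 77 genes.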

Additional observations from a re-analysis of the deposited data

Results flagged for a closer look

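In 155 sets of 1 gene and 1 group, 11 mice lay apart from their group, in that the gap to the nearest mouse, divided by the range of the group, was above Dixon's 95% critical value, which chance passes in about 1 in 20 sets. For genes whose other mice lie close together such a gap can be small. Among wild-type mice, Kcnab1 was 7.74 in Th17 recipient 1 (others 7.34 to 7.42), Kcnmb4 was 4.6 in Th17 recipient 5 (5.32 to 5.51), Kcnj10 was 8.34 in Th1 recipient 3 (8.45 to 8.48) and Kcnma1 was 6.32 in naive mouse 1 (6.64 to 6.75). Among naive mice labelled Act1 KO, Kcnn4 was 4.14 in mouse 5 (3.22 to 3.45), Kcnab2 was 9.48 in mouse 5 (9.67 to 9.70), Kcnh2 was 5.98 in mouse 4 (6.66 to 6.88) and Kcnn1 was 3.85 in mouse 3 (4.44 to 4.61). Among Th17 recipients labelled Act1 KO, Kcnc1 was 9.46 in mouse 3 (9.03 to 9.08), Kcnk13 was 6.0 in mouse 3 (5.55 to 5.61) and Kcnk1 was 9.48 in mouse 4 (9.39 to 9.40).

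The response to Th17 transfer differed between genotypes for 24 of the 29 genes named for this comparison, by the interaction term of the limma fit. Genes with the largest called differences were named for that reason, so their calls were fixed by the choice. Of all genes, 18.2% were called more positive and 13.8% more negative. The response was more negative in mice labelled Act1 KO for Kcnn4 (-3.68), Kcnk6 (-2.18) and Kcne1l (-1.86). It was more positive by over 1 for Kcnn2 (1.72), Kcng4 (1.26), Kcnab1 (1.17), Kcnab3 (1.14), Kcnd3 (1.12), Kcnh2 (1.10) and Kcnk3 (1.04). Smaller positive differences were found for the rectifiers Kcnj14 (0.95), Kcnj3 (0.90) and Kcnj16 (0.75), the leak channels Kcnk1 (0.84), Kcnk2 (0.74) and Kcnk13 (0.51), and the calcium- or sodium-activated group Kcnt1 (0.90), Kcnmb4 (0.78) and Kcnma1 (0.71). Of these, Kcnma1 did not pass on the mean of all probe sets (0.35, limma adjusted p = 0.18). The Shaker-related channels and their partners gave 0.77 for Kcnab2, 0.64 for Kcna2 and 0.63 for Kcna1, and Kcnip1 gave 0.67 and Kcnc1 0.49.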

How the results depend on the processing

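Counts of potassium channel genes called lower than in naive mice grew with the scaling, from 43 to 67 (array median) and 72 (ribosomal protein genes) in wild-type Th17 recipients and from 39 to 68 and 73 in Th1 recipients. Centring lowers all values of these wild-type recipients relative to those of naive mice. Of all genes, 65.6% and 78.0% were then called lower in Th17 recipients and 66.1% and 81.3% in Th1 recipients. At 2-fold or more the lower counts were 8 and 3. A block for plate row gave 5 genes in place of 3 called higher in Th17 recipients, beside 18.2% of all genes. The added ones were Kcnk5 and Kcna3. Between Th17 and Th1 recipients, the 2 lower calls became 1 with ribosomal centring, 1 without Th1 recipients 4 and 5, and 0 with the 2-fold threshold, the exact Mann-Whitney test and the methods' t-test after the adjustment added here. By the Mann-Whitney test the smallest adjusted p of all genes in that comparison was 0.241, so it says nothing about these genes. By the t-test at an unadjusted p under 0.05, as the methods use it, 0 were higher and 5 lower, beside 5.62% and 5.16% of all genes. Against naive mice, that t-test gave 3 higher and 44 lower in Th17 recipients, beside 19.7% and 29.1% of all genes. In Th1 recipients it gave 3 and 46, beside 18.6% and 29.3%. Between genotypes of Th17 recipients, higher counts were 63, 69 and 5 under array-median centring, ribosomal centring and the 2-fold threshold, beside 65.9%, 74.3% and 2.04% of all genes. The lower count was 3 under each of these, beside 12.1%, 10.3% and 7.36% of all genes. It was also 3 by the Mann-Whitney test, beside 15.1%. For the difference in response, the positive count was 62 with ribosomal centring, 21 with the plate row as a block and 7 at 2-fold. The shares of all genes were 57.9%, 12.6% and 2.72%, respectively. The row block lost the calls of Kcna1, Kcnc1, Kcnip1, Kcnj14, Kcnj16, Kcnk13, Kcnma1, Kcnmb4 and Kcnt1, and the cause was not tested. The mean of all probe sets lost those of Kcnma1 (0.35, limma adjusted p = 0.18) and Kcnc1 (0.36, 0.0809). A second probe set of Kcnma1 differed from naive mice by -0.72 in wild-type Th17 recipients and by -0.74 in those labelled Act1 KO.

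Leaving out 1 mouse gave 3 to 5 higher and 40 to 44 lower genes in Th17 recipients, 3 to 4 and 37 to 41 in Th1 recipients, 0 and 2 between them, 35 to 41 and 5 to 6 between genotypes of Th17 recipients, and 29 to 34 and 3 to 5 for the difference in response. The counts of 5 higher genes arose without naive mouse 1 or Th17 recipient 5, and that of 5 negative differences without naive mouse 1. Directions turned, among others, for Kcna3 in Th17 and Th1 recipients (-0.13 and -0.18, ribosomal centring), Kcnj8 in Th17 recipients (-0.08 and -0.26, array-median and ribosomal centring), Kcnj8 in Th1 recipients (-0.49, ribosomal centring) and, between genotypes of Th17 recipients, for Kcnj2 (0.26 and 0.38 under the array-median and ribosomal centring) and Kcnk5 (0.03, ribosomal centring). Samples with the same replicate number correlated from -0.245 to 0.437, above 0.1 in 9 of 28 cases, so no pairing by number was assumed. Samples of different numbers were not correlated for reference, so pairing is not excluded. With the replicate block, 3 higher and 44 lower genes were called in Th17 recipients, 3 and 41 in Th1 recipients, 0 and 2 between them, 37 and 5 between genotypes of Th17 recipients, and 34 and 3 for the difference in response.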
